A study of Homo sapiens with 8 samples.

Results

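Long noncoding RNAs (lncRNAs) that have been studied in liver cancer were followed across the 8 libraries of the series. The 9 genes MALAT1, NEAT1, HULC, MEG3, PVT1, UCA1, LINC00261, HOTAIR and CYTOR were taken by name, and each was found by its Ensembl gene identifier among the 63241 genes in the files. Poly(A) RNA was sequenced from 2 established human liver cancer lines, HepG2 and Huh7. For each line there were 2 libraries of the parental cells, labelled WT and treatment control, and 2 of the sorafenib-resistant derivative, labelled SR and treatment sorafenib. Sorafenib is a multikinase inhibitor used against advanced hepatocellular carcinoma, and the SR cells were obtained by exposure to a concentration gradient of the drug. Resistance and the drug label go together in every library, so the effect of being resistant and that of the drug itself cannot be told apart. All 8 libraries carried the same batch label, and nothing in the labels says whether 2 libraries of a group came from separate cultures, so p-values measure only the spread between these libraries.

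lncRNAs are transcripts without a long open reading frame, and many act in the nucleus, where they hold proteins together or bring chromatin-modifying complexes to genes. NEAT1 is the scaffold of paraspeckles, MALAT1 gathers in nuclear speckles, and HOTAIR and MEG3 bind Polycomb repressive complex 2, while HULC, UCA1 and CYTOR are known mostly as cytoplasmic or growth-promoting RNAs. LINC00261 lies beside FOXA2, a pioneer factor of endoderm and liver, and PVT1 lies beside MYC.

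Over the 15173 genes tested, Pearson r of log2 levels was 0.914 to 0.977 among 5 libraries, namely both HepG2 WT libraries, HepG2 SR replicate 1 and the replicate 2 libraries of Huh7. The replicate 1 libraries of Huh7 were alike (r = 0.965) and had r of 0.731 to 0.783 with those 5. HepG2 SR replicate 2 had r of 0.775 to 0.846 with the other 7 libraries. These 3 libraries stand apart. In Huh7 the 2 libraries of a group were less alike (r = 0.754 in WT and 0.760 in SR) than each replicate 2 library was to the HepG2 WT libraries. Of the 4 biliary markers, 2 moved with that split. KRT19, a biliary keratin, was at 155 to 760 FPKM in the 5 libraries and at 0.179 to 2.37 FPKM in the 3 that stand apart. EPCAM, an epithelial adhesion protein, was at 77.1 to 157 FPKM in the 5 and 7.03 to 11.0 FPKM in the 3. The other two, SOX9 and KRT7, overlapped between these sets. The summed level of the 4 biliary markers was 308 to 904 FPKM in the 5, most of it KRT19 and EPCAM, and 15.5 to 65.3 FPKM in the 3. All 10 hepatocyte markers passed the filter, and their sum was 646 to 7772 FPKM. Of these, only FGB separated the sets, at 0.386 to 4.51 FPKM in the 5 libraries and 128 to 380 FPKM in the 3. The other hepatocyte markers overlapped between the sets. AFP was at 1100 FPKM in HepG2 SR replicate 2 and at most 35.8 FPKM elsewhere. ALB was at most 42.3 FPKM in the Huh7 replicate 1 libraries and 604 FPKM or more elsewhere. Sums of 5 stromal, 4 endothelial and 5 blood or immune markers were at most 4.93, 4.52 and 29.7 FPKM, the last almost all CD68. PTPRC, the pan-leukocyte marker, was at most 0.0258 FPKM. The part of this split in the results below was not tested, so calls within a line or between the lines are also given without the 3 libraries.

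Some member sequences bear on how these RNAs are measured, and they are shown first. MALAT1 and the long NEAT1 transcript are known for a 3′ end that is cut by RNase P and kept stable by an RNA triple helix in place of a poly(A) tail, so oligo(dT) selection does not measure these RNAs directly. In the last 600 bases of the longest GENCODE 29 transcripts of the 2 genes (8708 bases for MALAT1 and 22743 for NEAT1), the longest run that both share was 16 bases, and downstream of it they share a further run of 11 bases. Capitals mark these shared runs, the U-rich one (written with T) and the A-rich one. The MALAT1 stretch lies at chr11:65506002-65506121 and the NEAT1 stretch at chr11:65445421-65445540 (GRCh38, plus strand), both in the annotated last exon. 25 bases separate the runs in MALAT1 and 30 in NEAT1.
MALAT1: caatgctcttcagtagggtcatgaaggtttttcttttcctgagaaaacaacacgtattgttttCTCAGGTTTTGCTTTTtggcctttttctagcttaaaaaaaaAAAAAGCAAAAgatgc
NEAT1: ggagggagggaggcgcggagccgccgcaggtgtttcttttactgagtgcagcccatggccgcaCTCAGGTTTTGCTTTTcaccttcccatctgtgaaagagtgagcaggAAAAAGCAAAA

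CYTOR has a near-copy on the same chromosome, MIR4435-2HG, and the copy decides how well reads of either can be placed. CYTOR spans chr2:87454781-87636740 on the plus strand and MIR4435-2HG chr2:111036776-111523376 on the minus strand (GRCh38). The 300-base promoter windows of RefSeq, which run from 250 bases before to 50 bases after the start site, share an unbroken run of 241 bases, in capitals below. Of the distinct 50-base words in CYTOR transcripts, 16.0% also occur in MIR4435-2HG transcripts, and 21.6% of the words of MIR4435-2HG occur in CYTOR. The CYTOR window (chr2:87455177-87455476, plus strand) holds 2 matches to the AP-1 motif TGAGTCA and the MIR4435-2HG window (chr2:111495112-111495411, minus strand) 1 match. On either strand, 4.95% of 35116 promoter windows hold this motif.
CYTOR: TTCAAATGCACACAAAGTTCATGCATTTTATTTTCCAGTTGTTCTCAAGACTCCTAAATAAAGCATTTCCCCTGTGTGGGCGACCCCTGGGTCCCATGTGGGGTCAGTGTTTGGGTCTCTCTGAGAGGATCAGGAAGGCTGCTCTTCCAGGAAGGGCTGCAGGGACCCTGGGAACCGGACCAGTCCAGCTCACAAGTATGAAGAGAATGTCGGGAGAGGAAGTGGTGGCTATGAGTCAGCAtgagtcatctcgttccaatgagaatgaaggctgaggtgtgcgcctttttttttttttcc
MIR4435-2HG: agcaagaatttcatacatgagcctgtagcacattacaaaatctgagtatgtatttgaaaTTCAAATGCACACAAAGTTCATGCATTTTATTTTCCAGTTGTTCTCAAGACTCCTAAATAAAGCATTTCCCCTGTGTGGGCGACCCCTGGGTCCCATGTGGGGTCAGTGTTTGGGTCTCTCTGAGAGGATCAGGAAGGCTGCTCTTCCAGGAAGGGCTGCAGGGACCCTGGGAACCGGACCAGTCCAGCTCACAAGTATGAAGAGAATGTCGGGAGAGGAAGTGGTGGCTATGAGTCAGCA

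Promoters of LINC00261 and MEG3 are shown because the levels of the neighbouring genes FOXA2 and DLK1 are set beside them below. LINC00261 (chr20:22547671-22578642, minus strand) starts 2362 bases from FOXA2, and its RefSeq promoter window (chr20:22578593-22578892, GRCh38.p14, minus strand) holds 1 match, in capitals, to the forkhead motif TGTTTAC, here on the opposite strand. The match starts at position -237 from the start site, and 3.42% of promoter windows hold this motif on either strand. The MEG3 window (chr14:100825858-100826157, plus strand) holds in capitals 1 match to the cyclic AMP response element TGACGTCA at position -50 and 1 to the TATA motif TATAAA at position -18. These motifs occur on either strand in 1.85% and 11.5% of promoter windows. A match is a stretch of letters and says nothing on binding in these cells. The promoter table held windows for 4 of the 9 members.
LINC00261: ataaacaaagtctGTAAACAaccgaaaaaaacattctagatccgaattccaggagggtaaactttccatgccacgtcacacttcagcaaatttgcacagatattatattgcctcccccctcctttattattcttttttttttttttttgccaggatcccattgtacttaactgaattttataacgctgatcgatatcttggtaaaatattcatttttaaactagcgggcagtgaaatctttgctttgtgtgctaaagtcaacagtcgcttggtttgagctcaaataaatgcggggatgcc
MEG3: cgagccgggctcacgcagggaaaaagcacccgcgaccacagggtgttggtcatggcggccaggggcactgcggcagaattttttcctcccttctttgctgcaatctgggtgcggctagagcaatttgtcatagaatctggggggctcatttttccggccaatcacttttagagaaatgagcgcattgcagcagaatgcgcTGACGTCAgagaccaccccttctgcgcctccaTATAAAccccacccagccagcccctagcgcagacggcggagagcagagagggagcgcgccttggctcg

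Of the 9 lncRNAs, 7 passed the filter on low values, 1 FPKM or more in 2 or more libraries, and were tested. FPKM, the unit of the files, is fragments scaled by transcript length and by the mapped total of the library. Its sum over all genes still differed between libraries, at 384792 to 403905 in WT and 411763 to 429111 in SR. Comparisons between genes or libraries are therefore approximate. The gene lists below were tested on this scale only, and its part in their small shifts of SR over WT was not tested. The limits given above for the rows of MALAT1, NEAT1 and CYTOR apply to ranks between genes too. MEG3 stayed under 1 FPKM in all 8 libraries and HOTAIR exceeded it in 1, and both are described by their values. Among 15736 annotated lncRNA genes in the files, NEAT1 ranked 1 to 31 by FPKM in the 8 libraries, MALAT1 27 to 97 and CYTOR 28 to 150. HULC, PVT1, UCA1 and LINC00261 ranged far more widely, UCA1 from 1 to 2311. A gene was called when the unadjusted limma p was under 0.05 and the log2 fold change was at least 0.5 or under -0.5. No gene of the 15173 had a limma adjusted p under 0.05 in any comparison, while 325 had an unadjusted p under 0.05 in HepG2, 283 in Huh7, 597 over both lines, 744 between the lines and 92 for the difference of the SR effect between them. In bulk RNA, fewer cells that express a gene and less RNA per cell cannot be told apart.

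NEAT1 was the only one of the 7 tested lncRNAs called between SR and WT cells within a line. In HepG2 it was called lower in the resistant cells, with 361 and 264 FPKM in the WT libraries and 97.8 and 19.2 FPKM in the SR libraries. The groups did not overlap, and the lowest value belonged to HepG2 SR replicate 2, which stands apart. The group means were 313 ± 68.3 FPKM (SD, n = 2) and 58.5 ± 55.5 FPKM (SD, n = 2). The log2 fold change of FPKM + 1 was -2.79 (SE 0.88, 95% interval -4.89 to -0.70, limma adjusted p = 0.956). In HepG2 1 of 7 tested members was called, where 2.14% of all tested genes were called. Without HepG2 SR replicate 2 the log2 fold change was -1.65 and the call was lost, and it was lost without HepG2 WT replicate 1 as well (-2.57). Without all 3 libraries that stand apart it was again -1.65, with 1 residual degree of freedom, and kept the call.

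In Huh7 the values of NEAT1 were 73.1 and 253 FPKM in WT and 135 and 275 FPKM in SR, and the groups overlapped. Its log2 fold change there was 0.50 (SE 0.88, 95% interval -1.60 to 2.59, limma adjusted p = 1.0). The 2 low Huh7 values were those of the replicate 1 libraries. The change in Huh7 minus the change in HepG2 was 3.29 on the log2 scale (SE 1.25, 95% interval 0.32 to 6.26, limma adjusted p = 1.0), and NEAT1 was the only member called for it, beside 0.606% of all tested genes. That call was lost with either HepG2 WT library left out alone (3.07 and 3.51), and likewise for HepG2 SR replicate 2 (2.15), the WT replicate 1 library of Huh7 (2.40) and its SR replicate 2 library (2.78). With the replicate number as a block the estimate stayed at 3.29 and the call was lost too. Without the 3 libraries that stand apart the difference was 1.77, with 1 residual degree of freedom, and was called. In order of mean FPKM the groups were HepG2 WT, Huh7 SR at 205 ± 98.9 (SD, n = 2), Huh7 WT at 163 ± 127 (SD, n = 2) and HepG2 SR. The middle groups differed by less than their spread.

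NEAT1 is made as a short polyadenylated transcript of 3441 bases and a long one of 22743 bases that builds the paraspeckle, and gene-level FPKM does not separate them. The proteins that assemble on it were looked at as a list of 16, all of which were tested. Summed FPKM was higher in SR than in WT libraries, as given above. In HepG2 SR all 16 had a log2 fold change above 0, where 47.6% of all tested genes did, with a median of 0.33 beside -0.03, and 1 was called beside 2.14% of all tested genes. In Huh7 13 of 16 were above 0 (44.7% of all tested genes), with a median of 0.20 beside -0.05, and 0 were called, beside 1.87% of all tested genes. The called protein was PSPC1, a core paraspeckle component, at 23.7 and 19.9 FPKM in HepG2 WT and 33.5 and 43.8 FPKM in HepG2 SR (log2 fold change 0.79, SE 0.32, limma adjusted p = 0.956). Its SR libraries lay above its WT libraries in HepG2, and in Huh7 too, where it was not called. Over both lines 1 of 16 was called, again PSPC1 (0.77, SE 0.23, limma adjusted p = 0.998), beside 3.93% of all tested genes. With 1 library left out, that estimate ran from 0.67 to 0.86, and its call was lost without HepG2 WT replicate 2. Without HepG2 SR replicate 2, or without all 3 libraries that stand apart, the PSPC1 estimate in HepG2 was 0.60 and not called, and the call was also lost with any of 6 other libraries left out. NONO and SFPQ, core paraspeckle proteins named here for that role after their values were seen, were not called. NONO was at 85.1 and 87.2 FPKM in HepG2 WT and 116 and 139 FPKM in HepG2 SR. SFPQ was at 75.0 and 81.0 FPKM in HepG2 WT and 93.3 and 110 FPKM in HepG2 SR. Among tested genes, the closest in pattern to NEAT1 over the 8 libraries were ATG16L2 (Pearson r = 0.964), DNAJC25-GNG10 (r = 0.955) and NYAP1 (r = 0.948), where the points share the library split described above.

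MALAT1 had the smallest spread of the 7 tested members. It was at 23.2 and 18.5 FPKM in HepG2 WT, 17.8 and 7.26 in HepG2 SR, 15.4 and 25.0 in Huh7 WT, and 20.7 and 20.6 in Huh7 SR. Only HepG2 SR replicate 2 lay well under the others. The SD of its log2 level over the 8 libraries was 0.52, larger than that of 52.8% of tested genes, while for NEAT1 it was 1.38 and larger than that of 94.3%. Its log2 fold change was -0.80 in HepG2 (SE 0.48, 95% interval -1.93 to 0.33) and 0.07 in Huh7 (SE 0.48, 95% interval -1.06 to 1.20), and neither was called by limma (adjusted p of 0.956 and 1.0). Without HepG2 SR replicate 1, where HepG2 SR replicate 2 alone stood for the group, it was -1.40 in HepG2 and called. It was -0.21 and not called without HepG2 SR replicate 2, as it was without all 3 libraries that stand apart. MALAT1 is 52147 bases downstream of NEAT1 on chromosome 11 (chr11:65497688-65506516 and chr11:65422774-65445540, both plus strand). Of its 50-base words, 3.63% lie antisense in a short annotated gene whose own row is at 0 in all libraries. TALAM1, the natural antisense transcript of MALAT1, was listed at 0 in all 8 libraries, and the strand setting of the counting is not given in the sources used here.

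The proteins of the nuclear speckle, the body where MALAT1 collects, were looked at as 18 splicing factors, all tested. Within HepG2 0 of 18 were called by limma, beside 2.14% of all tested genes, and within Huh7 0 of 18, beside 1.87%. The medians were 0.28 and 0.25 on the log2 scale, beside -0.03 and -0.05 over all tested genes. Above 0 were 15 and 16 of 18, beside 47.6% and 44.7% of all tested genes, again on a scale with higher sums in SR. Over both lines 3 of 18 were called higher in SR, SRSF2 (0.84), SRSF10 (0.79) and SRSF7 (0.78), beside 3.93% of all tested genes, each with a limma adjusted p of 0.998. Without the 3 libraries that stand apart SRSF2 (0.92) and SRSF10 (0.88) kept the call and SRSF7 (0.70) lost it, and each of the 3 lost it with any of 4 or 5 libraries left out alone. Closest to MALAT1 in pattern were DNAJC25-GNG10 (r = 0.986 over 8 libraries), CACNA1H (r = 0.982) and SH3GLB2 (r = 0.977).

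UCA1 showed the widest range of all members, and its level did not follow the labels of line and resistance. It was at 411 FPKM in Huh7 WT replicate 1 and 366 FPKM in Huh7 SR replicate 1, and at 0.264 and 0.747 FPKM in the other Huh7 WT and SR libraries. In HepG2 it was at 0.874 and 1.19 FPKM in WT and 0.872 and 0.303 FPKM in SR. In the 2 high libraries it ranked 1 among all annotated lncRNA genes, and the highest value was 1560 times the lowest. UCA1, first described in bladder cancer, is a spliced RNA from chromosome 19 (chr19:15828206-15836326, plus strand). Its log2 SD of 3.65 exceeded that of 99.9% of tested genes. With replicates that far apart its fold changes had wide intervals, from -7.73 to 6.98 in HepG2 and from -7.20 to 7.50 in Huh7, and neither was called. Between the lines the log2 fold change was -3.76 (95% interval -8.96 to 1.44) and not called, and it was called without Huh7 WT replicate 2 (-5.84) or without Huh7 SR replicate 2 (-5.69). Without the 3 libraries that stand apart it turned to 0.39 and was not called. The 3 tested genes closest to it, FAR1 (r = 0.999), TIAM1 (r = 0.999) and ENSG00000273554 (r = 0.998), were high in the same 2 libraries, and 436 tested genes had r above 0.95 with it.

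The row of HULC needs a caution before its values. HULC, highly upregulated in liver cancer, is a short RNA at chr6:8652269-8653856 in RefSeq. Its identifier in the files, ENSG00000285219, covers chr6:8435568-9294133 in GENCODE 29, under another name and with 113 transcripts, and only 7 of them have an exon within the HULC interval. The files do not say which transcripts entered the row, so the values are those of this locus. They were 0.643 and 2.71 FPKM in HepG2 WT and 2.12 and 21.2 FPKM in HepG2 SR. In Huh7 they were 11.6 and 1.14 FPKM in WT and 37.7 and 2.13 FPKM in SR. The 3 highest values were those of the 3 libraries that stand apart, and the groups overlapped in both lines. For this row, log2 fold changes were 1.75 in HepG2 (SE 1.49, 95% interval -1.79 to 5.30) and 1.08 in Huh7 (SE 1.49, 95% interval -2.46 to 4.63), and neither was called. Without HepG2 SR replicate 2, or without the 3 libraries that stand apart, the HepG2 value was 0.34. Between libraries of the same number, SR minus WT on the log2 scale was 0.93 and 2.58 in HepG2 and 1.62 and 0.55 in Huh7. With that number as a block within each line, a setting added after the data were seen, the row was called in HepG2 and over both lines. IGF2BP1, a protein that binds HULC RNA, was at 25.9 to 41.9 FPKM in all libraries. Closest in pattern to the locus were SPACA6 (r = 0.980), YAE1 (r = 0.980) and SNUPN (r = 0.978), and 81 genes had r above 0.95.

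PVT1, whose gene lies beside MYC and whose RNA is known to keep MYC protein stable, was lowest in the 3 libraries that stand apart. It was at 21.3 and 15.9 FPKM in HepG2 WT and 15.9 and 1.24 FPKM in HepG2 SR. In Huh7 it was at 6.31 and 40.4 FPKM in WT and 7.70 and 31.7 FPKM in SR. MYC was at 41.0 and 49.3 FPKM in HepG2 WT, 69.4 and 28.2 in HepG2 SR, 27.0 and 97.3 in Huh7 WT, and 26.2 and 58.4 in Huh7 SR. The 3 libraries with the lowest PVT1 also had the lowest MYC, and Huh7 WT replicate 2 was highest in both. For PVT1, log2 fold changes were -1.66 in HepG2 (SE 1.20, 95% interval -4.51 to 1.20) and -0.05 in Huh7 (SE 1.20, 95% interval -2.90 to 2.81), and that of MYC in HepG2 was -0.02 (SE 0.73). None was called. The HepG2 value of PVT1 was -0.20 without HepG2 SR replicate 2, and it was the same without the 3 libraries that stand apart. A call appeared in HepG2 without HepG2 SR replicate 1 (-3.12), and between the lines, where the estimate was -0.65, without the 3 libraries that stand apart (-1.02). MEGF6 (r = 0.985), NCK2 (r = 0.984) and GCKR (r = 0.975) were closest to PVT1 over the 8 libraries.

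CYTOR, a cytoskeleton regulator RNA, had lower values in both HepG2 SR libraries than in WT, with close replicates. It was at 21.9 and 20.2 FPKM in HepG2 WT and 11.9 and 11.6 FPKM in HepG2 SR, and the groups did not overlap. The means were 21.1 ± 1.15 and 11.7 ± 0.19 FPKM (SD, n = 2 each). The log2 fold change of -0.79 (SE 0.46, 95% interval -1.88 to 0.30) was not called, since limma pools the spread of all 4 groups (adjusted p = 0.956). When HepG2 was fitted alone, with its own spread, it was called. In Huh7 CYTOR was at 4.85 and 10.6 FPKM in WT and 6.75 and 12.8 FPKM in SR, and the groups overlapped (log2 fold change 0.33, SE 0.46, 95% interval -0.76 to 1.42). MIR4435-2HG, its near-copy shown above, was at 53.7 and 50.1 FPKM in HepG2 WT and 46.0 and 13.3 FPKM in HepG2 SR. The HepG2 SR libraries were far apart for the near-copy and close for CYTOR. In Huh7 MIR4435-2HG was at 14.4 and 24.1 FPKM in WT and 16.2 and 45.9 FPKM in SR. How reads common to both loci were assigned is not given in the sources used here, so the split between their rows is uncertain.

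In HepG2 the groups did not overlap for 4 of 7 tested members (MALAT1, NEAT1, UCA1 and CYTOR), each lower in SR. For UCA1 the closest values were 0.874 FPKM in WT replicate 1 and 0.872 FPKM in SR replicate 1, both under 1 FPKM. For MALAT1 they were 18.5 FPKM in WT replicate 2 and 17.8 FPKM in SR replicate 1. Of all tested genes, 38.2% did not overlap between these groups, a share that counts both directions. In Huh7 0 of 7 members were free of overlap, beside 22% of tested genes, and over all 4 SR against 4 WT libraries 0 of 7, beside 3.68%. No member was called in Huh7, beside 1.87% of tested genes, or over both lines, where NEAT1 became called without HepG2 SR replicate 1 (-1.72) or Huh7 WT replicate 1 (-1.59). Averaged log2 fold changes over both lines ran from -1.15 for NEAT1 (SE 0.62, 95% interval -2.63 to 0.34) to 1.42 for HULC (SE 1.06, 95% interval -1.09 to 3.93). In the two-sided exact permutation test of 4 SR against 4 WT libraries, p ranged from 0.229 for HULC to 0.743 for UCA1, and the smallest p that its 70 splits allow is 0.0286.

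**Figure D1:**
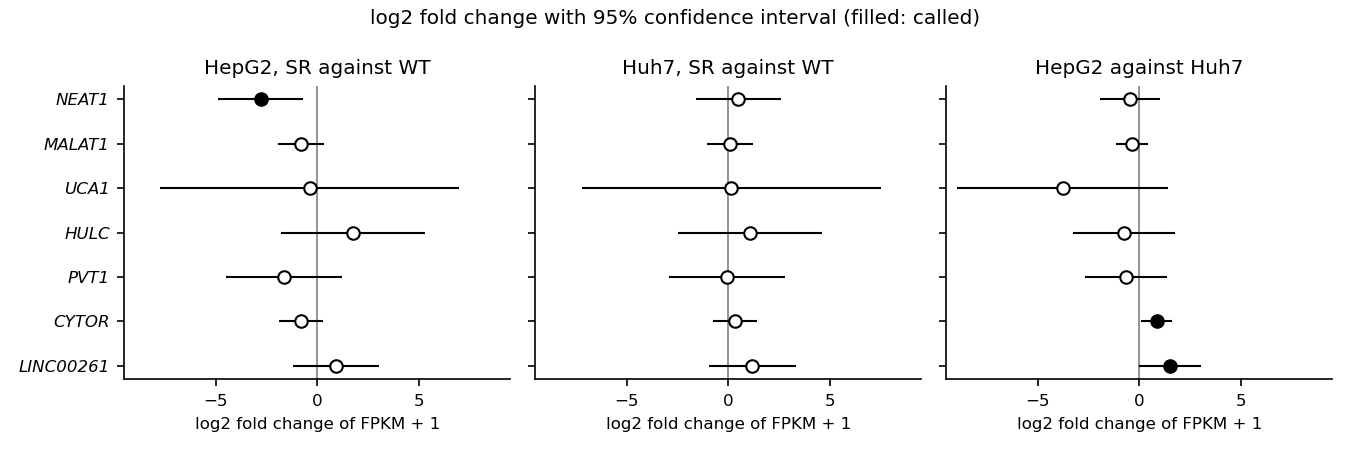
log2 fold change of FPKM + 1 on the horizontal axis for the 7 tested lncRNAs, with bars for the 95% confidence interval and filled points where the member was called. NEAT1 in HepG2 (-2.79) and CYTOR (0.86) and LINC00261 (1.52) between the lines are filled, and the bars of UCA1 are the widest.

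LINC00261, an endoderm lncRNA transcribed next to FOXA2 and described as a growth suppressor in liver cancer, was called higher in HepG2 than in Huh7. It was at 19.9 and 12.4 FPKM in HepG2 WT, 16.6 and 56.1 in HepG2 SR, 1.40 and 10.8 in Huh7 WT, and 7.20 and 17.0 in Huh7 SR. The highest value was that of HepG2 SR replicate 2 and the lowest those of the 2 Huh7 replicate 1 libraries, and the 4 HepG2 libraries overlapped the 4 Huh7 libraries. Between the lines its log2 fold change was 1.52 (SE 0.64, 95% interval 0.01 to 3.03, limma adjusted p = 0.813). It was 0.23 without the 3 libraries that stand apart and not called, and the call was also lost with any of 5 libraries left out alone. Those 5 were both HepG2 WT libraries (1.36 and 1.68), HepG2 SR replicate 2 (1.09) and the replicate 1 libraries of Huh7 (0.94 and 1.23).

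Resistance did not give a call for LINC00261 in either line, although the estimate was positive in both. The log2 fold change of SR over WT was 0.93 in HepG2 (SE 0.90, 95% interval -1.21 to 3.06) and 1.19 in Huh7 (SE 0.90, 95% interval -0.95 to 3.33). Without Huh7 WT replicate 2 it was 2.34 in Huh7 and 1.63 over both lines, and called in each. Without Huh7 WT replicate 1 it was 0.04 in Huh7, and without HepG2 SR replicate 2 it was 0.08 in HepG2. FOXA2 was at 18.9 and 16.3 FPKM in HepG2 WT, 17.2 and 38.8 in HepG2 SR, 16.0 and 23.8 in Huh7 WT, and 16.5 and 27.4 in Huh7 SR. The neighbours were highest in the same library, HepG2 SR replicate 2. In Huh7 WT replicate 1 LINC00261 was lowest at 1.40 FPKM. There FOXA2, at 16.0 FPKM, was close to its values in HepG2 WT replicate 2 (16.3) and Huh7 SR replicate 1 (16.5). In GENCODE 29, 85.3% of the 50-base words of LINC00261 also belong to an overlapping gene on the same strand, AL121722.1, which has no row in the files. HDAC10 (r = 0.988), RAP1A (r = 0.964) and GRPEL1 (r = 0.963) were closest to LINC00261 in pattern.

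CYTOR was the other member called between the lines. Its log2 fold change for HepG2 over Huh7 was 0.86 (SE 0.32, 95% interval 0.09 to 1.63, limma adjusted p = 0.813). With 2 of 7 members called here, 4.9% of all tested genes were called. The HepG2 range of 11.6 to 21.9 FPKM and the Huh7 range of 4.85 to 12.8 FPKM overlapped through Huh7 SR replicate 2. The estimate was 0.41 without the 3 libraries that stand apart and not called. Left out alone, any of the 4 HepG2 libraries (0.83 to 0.89), Huh7 WT replicate 1 (0.61) or Huh7 SR replicate 1 (0.65) ended the call. Closest to CYTOR were 3 noncoding genes, ENSG00000262445 (r = 0.983), TSKU-AS1 (r = 0.973) and LINC02313 (r = 0.968).

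**Figure D2:**
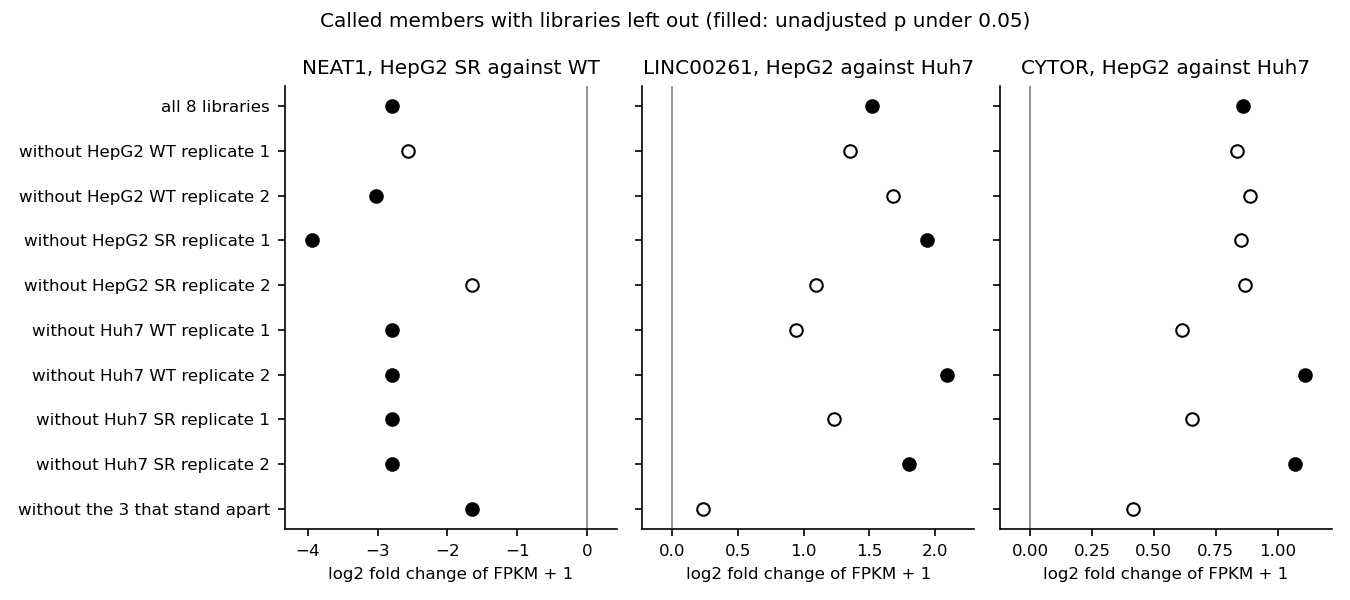
log2 fold change of FPKM + 1 on the horizontal axis for the called members with all 8 libraries, with each library left out, and without the 3 that stand apart (filled points have an unadjusted limma p under 0.05). NEAT1 runs from -3.94 to -1.65, LINC00261 from 0.23 to 2.09 and CYTOR from 0.41 to 1.11.

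MEG3, a maternally expressed imprinted lncRNA with growth-suppressing activity, was under 1 FPKM in every library. It was at 0.020 and 0.320 FPKM in HepG2 WT, listed at 0 and at 0.0229 in HepG2 SR, at 0.532 and 0.0170 in Huh7 WT, and at 0.326 and listed at 0 in Huh7 SR. The values above 0.1 FPKM came from HepG2 WT replicate 2 and the 2 Huh7 replicate 1 libraries. HepG2 WT replicate 2 had 38276 genes above 0 where the other libraries had 27188 to 29071. DLK1 is the paternally expressed gene 41185 bases from MEG3 in the same imprinted domain. It moved with the library split, at most 0.0102 FPKM in the 3 libraries that stand apart and 33.0 to 62.1 FPKM elsewhere. MEG3 was at most 0.532 FPKM, and a relation between these RNAs was not tested. DLK1 was at 33.0 and 50.4 FPKM in HepG2 WT and 62.1 FPKM and listed at 0 in HepG2 SR. In Huh7 it was at 0.00701 and 36.0 FPKM in WT and 0.0102 and 47.7 FPKM in SR. In HepG2 WT replicate 2 both RNAs were above 0.1 FPKM. In HepG2 SR replicate 2 DLK1 was listed at 0 and MEG3 at 0.0229 FPKM. RTL1, MEG8 and MEG9 of the same domain were at most 0.102, 0.304 and 0.189 FPKM, each highest in HepG2 WT replicate 2.

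HOTAIR, transcribed antisense within the HOXC cluster (chr12:53962308-53974956, minus strand), passed 1 FPKM in HepG2 SR replicate 2 only. There it was at 1.52 FPKM, and in the other 7 libraries it was at 0 to 0.0456 FPKM. Its HOXC neighbours had their highest values in the same library, HOXC10 at 37.5, HOXC13 at 7.59, HOXC11 at 2.41 and HOXC12 at 1.95 FPKM. HOXC10 was also at 9.95 and 10.8 FPKM and HOXC13 at 7.11 and 3.88 FPKM in the Huh7 replicate 1 libraries, where HOTAIR was at 0.0456 and 0.0198 FPKM. In the remaining 5 libraries HOXC10 was at most 0.0330 FPKM. HOTAIR overlaps HOXC11 by 1831 bases in the annotation, on opposite strands, so without the strand setting their reads cannot be told apart in the shared stretch. In HepG2 SR replicate 1 HOTAIR was listed at 0, so a mean over the 2 SR libraries would describe neither.

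Polycomb repressive complex 2, the histone methyltransferase complex that HOTAIR binds, had 1 of 3 core members called in HepG2, beside 2.14% of all tested genes. EZH2, its catalytic subunit, was at 7.35 and 10.2 FPKM in HepG2 WT and 18.1 and 29.0 FPKM in HepG2 SR (log2 fold change 1.31, SE 0.41, limma adjusted p = 0.956). Both HepG2 SR libraries lay above both WT libraries, also the SR library with HOTAIR listed at 0. Without HepG2 SR replicate 2, or without all 3 libraries that stand apart, the EZH2 estimate was 0.99 and not called, and the call was also lost without HepG2 WT replicate 1. SUZ12 was at 11.5 and 10.5 FPKM in HepG2 WT and 14.9 and 28.2 FPKM in HepG2 SR, and EED at 12.2 to 15.4 FPKM in all libraries. Of the 16 neighbours and partners, 10 were tested. EZH2 was the only call in HepG2, where 2.14% of all tested genes were called, and 0 were called in Huh7, beside 1.87%. Over both lines 1 was called, again EZH2 (0.86, SE 0.29, limma adjusted p = 0.998), beside 3.93% of all tested genes. Without the 3 libraries that stand apart that EZH2 estimate was 0.62 and not called. Left out alone, HepG2 WT replicate 1, HepG2 SR replicate 2, Huh7 WT replicate 2 or Huh7 SR replicate 1 also ended that call.

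Other lncRNAs studied in liver cancer were set beside the 9 as a list of 35, of which 22 were tested. In HepG2 SR 1 was called higher and 1 lower, beside 2.14% of all tested genes. The medians of the list were -0.19 in HepG2 and 0.02 in Huh7 on the log2 scale, beside -0.03 and -0.05 over all tested genes. SNHG1, a small nucleolar RNA host gene, was at 11.1 and 21.8 FPKM in HepG2 WT and 40.6 and 127 FPKM in HepG2 SR (log2 fold change 2.14, SE 0.60, limma adjusted p = 0.956). Without the 3 libraries that stand apart it was 1.32 and not called, and the call was also lost without HepG2 WT replicate 1 (1.68). LUCAT1, a stress-induced lncRNA, was at 8.55 and 6.41 FPKM in HepG2 WT and 4.32 and 0.282 FPKM in HepG2 SR (log2 fold change -1.69, SE 0.66, limma adjusted p = 0.956). It was -0.66 and not called without HepG2 SR replicate 2 or without the 3 libraries that stand apart. Only leaving out HepG2 SR replicate 1 or Huh7 WT replicate 1 kept the call. Over both lines 1 gene of the list was called higher, SNHG1 (1.40), and 1 lower, LUCAT1 (-1.36), beside 3.93% of all tested genes. Each had a limma adjusted p of 0.998. Without the 3 libraries that stand apart SNHG1 was 0.89 and not called, and LUCAT1 was -0.94 and called. SNHG1 also lost this call without HepG2 WT replicate 1. LUCAT1 lost it without HepG2 WT replicate 1, Huh7 WT replicate 2 or Huh7 SR replicate 1.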

How the data were processed

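Total RNA was enriched for poly(A) RNA on oligo(dT) beads, made into libraries with the NEBNext Ultra kit and sequenced. The submitters' processing notes name fastp 0.20.0 and the GRCh38 build, and the aligner, the quantifier, the annotation and the strand setting are not given in the sources used here. The authors deposited 1 file per library with an FPKM value per Ensembl gene, already scaled for depth and transcript length, and since FPKM are not counts the edgeR test that the study names was replaced by limma.

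Symbols were matched by Ensembl identifier (62666 of 63241 genes, 99.1%). Genes with at least 1 FPKM in at least 2 of 8 libraries (15173) were tested on log2(FPKM + 1), which understates changes of low genes. limma 3.58.1 in R 4.3.3 fitted 4 group means in 1 model with a trended prior, so that groups of 2 libraries share an estimate of the spread, and Benjamini-Hochberg adjustment ran over all genes tested. Calls used the thresholds of the study, 0.05 for the unadjusted p and, on the log2 scale, 0.5 or more upward or under -0.5 downward. The fit was tested on simulated data with independent noise in each gene and library. That test did not include the split of the libraries described above. Python 3.11.15, pandas and NumPy made the summaries, including two-sided exact permutation tests of 4 SR against 4 WT libraries.

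In genes with 1 annotated transcript, the spacing of the lowest FPKM gave a rough depth of 27850000 to 54500000 fragments per library. At that depth 10.9 to 17.1% of low values came within 0.02 of whole fragments, too few to recover counts, so no counting interval is given. Sequences came from RefSeq (GRCh38.p14) and GENCODE 29 (GRCh38). The files hold 63241 genes, where 58228 identifiers were counted for GENCODE 29, so it was not the annotation behind the files. Transcript counts, overlaps and shared words taken from GENCODE 29 may differ from those behind the rows.

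Named genes were all 9 members, the 3 tested genes with the highest Pearson r with each tested member, the neighbours and partners, and up to 3 called genes of each further list and comparison. The members and the gene lists were chosen with earlier results of these data known. A result of 1 listed gene is not reported here.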

Additional observations from a re-analysis of the deposited data

Results flagged for a closer look

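NEAT1 was called for the interaction term of the limma fit, the difference of the SR effect between the lines. This call rests on the unadjusted p only, where 0.606% of all tested genes were called. Its log2 fold change in Huh7 minus that in HepG2 was 3.29 (adjusted p = 1.0 over 15173 genes), with both HepG2 SR libraries below both HepG2 WT libraries and overlapping groups in Huh7. Left out alone, 5 of the 8 libraries ended this call.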

How the results depend on the processing

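Over 17 or 18 alternatives each, the direction of the 3 called members never changed. NEAT1 in HepG2 kept its call in 16 of 18 alternatives, CYTOR between the lines in 10 of 17 and LINC00261 in 7 of 17. The adjusted p, under which no member was called, is not among these alternatives. Leaving out a Huh7 library cannot change the HepG2 estimate of NEAT1, which stayed at -2.79. Of the HepG2 libraries, leaving out WT replicate 1 or SR replicate 2 lost its call. In all, 430 of 490 single fold changes kept direction and call, 25 changed sign, 19 lost a call and 16 gained one. The cause was not tested. With adjusted p the count of called members was 0 in every comparison. Fitting HepG2 alone called 2 members there (NEAT1 and CYTOR). Between the lines, a pseudocount of 0.1, no filter, quantile normalization and eBayes without trend each left 1 called member (CYTOR) in place of 2, and leaving out the 3 libraries that stand apart left 1 (PVT1). The labels do not say that a replicate number marks a shared batch, so the fit reported has no block. The differences between replicates 1 and 2 correlated between WT and SR at r = 0.125 in HepG2 and 0.796 in Huh7, and between the lines at -0.562 to -0.0416. With the replicate number as a block, the difference of the SR effect had 0 called members. With a block within each cell line, added after the data were seen, 4 members were called in HepG2 (NEAT1, HULC, PVT1 and CYTOR). The same setting called 2 over both lines (NEAT1 and HULC) and 2 for the difference (NEAT1 and CYTOR). Of all 92 counts of called members under alternatives, 59 stayed within 1.5 times of the main count and 33 did not. Besides those named here, each count that moved came from leaving out 1 library, as given below.

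Reversed signs all concerned values that were not called. For SR against WT in Huh7, MALAT1 was -0.015 as TPM and -0.26 without the 3 libraries that stand apart (chosen after seeing the data), while quantile normalization gave 0.032 for PVT1 and -0.16 for UCA1. Without those 3 libraries UCA1 was 0.18 over both lines and 0.39 between the lines, and HULC was 0.10 between the lines. Leaving out 1 library at a time, the count of called members ran from 0 to 3 in HepG2, 0 to 1 in Huh7, 0 to 1 over both lines, 0 to 3 between the lines and 0 to 2 for the difference. In Huh7 the fold change ran from -0.26 to 0.40 for MALAT1, -0.39 to 1.38 for NEAT1, -0.73 to 2.90 for HULC, -1.30 to 1.20 for PVT1, -4.02 to 4.33 for UCA1 and -0.17 to 0.82 for CYTOR. Over both lines it ran from -2.20 to 1.98 for UCA1 and from -0.48 to 0.015 for CYTOR. Between the lines it ran from -1.04 to 0.10 for NEAT1, -1.64 to 0.17 for HULC and -1.38 to 0.082 for PVT1. With 2 libraries per group and an estimated depth only, a difference that was not called may still exist, and a lone library left in a group is assumed to vary like the others.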

Other observations

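Among the other lncRNAs studied in liver cancer, several not covered by the naming rule were picked after their values were seen. H19, an imprinted fetal lncRNA, was at 3.85 FPKM in Huh7 WT replicate 1, 17.4 FPKM in Huh7 SR replicate 1 and 1.55 FPKM in HepG2 SR replicate 2, and at most 0.111 FPKM in the other 5 libraries. CRNDE, a lncRNA raised in several carcinomas, was at 3.84 to 6.32 FPKM in the same 3 libraries and at most 0.515 FPKM elsewhere. GAS5 and ZFAS1, both small nucleolar RNA host genes, were highest in Huh7 WT replicate 2, at 297 and 362 FPKM, where the other 7 libraries held 55.8 to 130 and 31.2 to 86.9 FPKM. DANCR, also a small nucleolar RNA host gene, was highest in HepG2 SR replicate 2 at 190 FPKM, against 18.0 to 75.6 FPKM in the others.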
